A study of Homo sapiens with 4 samples.

Results

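The 8 human globin genes listed here were the beta-cluster genes HBB, HBD, HBG1, HBG2 and HBE1 on chromosome 11 and the alpha-cluster genes HBZ, HBA2 and HBA1 on chromosome 16, out of 19962 protein-coding genes in the GENCODE v44 annotation of hg38. The genes were chosen by name, and the regions were chosen by distance. All peaks with a summit within 100 kb of a gene's start and all loops with an anchor in the same window were taken. The beta window ran over 242.9 kb at chr11:5127071-5369945 and the alpha window over 224.0 kb at chr16:52644-276680.

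The data came from HG00731, a lymphoblastoid cell line, which is a culture of B lymphocytes immortalized with Epstein-Barr virus. HiChIP joins DNA ends that lie close together in fixed nuclei and then pulls down the fragments bound by a chosen protein, so that it gives both binding sites, called peaks, and contacts between sites, called loops. For SMC1, a core subunit of the cohesin ring, chromatin was fixed with formaldehyde and then with EGS, a longer cross-linker, in 2 biological replicates (FA-EGS-HiChIP). For CTCF, chromatin was fixed with formaldehyde alone in 2 biological replicates (FA-HiChIP). The labels name no treatment, and the line stands for 1 donor. The replicates of a target had been pooled before peaks and loops were called, so each target had 1 peak list and 1 loop list, no spread between replicates could be measured, and no test was made. Target and fixation changed together and cannot be told apart. The loop lists held 28012 loops labelled SMC1 and 80487 labelled CTCF, and the study's own table gives these same numbers with the labels exchanged. The numbers of peaks at their anchors also came close to the study's only with this exchange, so these labels may be the wrong way round. The loop lists are named here by their deposited label only, and nothing is read from the label about the protein.

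Globin genes encode the chains of hemoglobin, which carries oxygen in red blood cells. The beta-like genes lie in the order in which they are used in development, from HBE1 (embryonic epsilon) over HBG2 and HBG1 (fetal gamma) to HBD (delta) and HBB (adult beta), and the alpha-like genes from HBZ (embryonic zeta) to HBA2 and HBA1 (fetal and adult alpha). In erythroid cells each cluster is switched on by distant enhancers. Those of the beta cluster form the locus control region upstream of HBE1, and those of the alpha cluster lie within introns of the neighboring gene NPRL3. CTCF is a DNA-binding protein that can halt cohesin as it extrudes a loop, and sites whose motifs point towards each other often mark the ends of a loop. Lymphoblastoid cells are not known to make hemoglobin, so these lists show the clusters outside the lineage that uses them. The annotation marked no enhancer or hypersensitive site, so none is assigned to a peak below.

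Across the series, 96855 SMC1 peaks and 62869 CTCF peaks were listed on chromosomes 1 to 22 and X, with 28012 loops labelled SMC1 and 80487 labelled CTCF. The loops held 788356 and 2666327 read pairs in all. The lists hold no totals of sequenced reads. The cell type label was set against marker genes: an SMC1 summit lay within 1 kb of the start of the gene record for 5 of 7 B cell genes (MS4A1, CD79A, CD79B, PAX5 and EBF1, with CD22 at 1024 bp and BLK at 3720 bp) and 0 of 6 erythroid genes (GATA1, KLF1, ALAS2, AHSP, SLC4A1 and EPB42), where 50.5% of all coding genes had one. By the start of the canonical transcript the counts were 6 of 7, with CD22, and 0 of 6. The 6 erythroid genes come from longer lists, described at the end, in which LMO2, GFI1B and FECH had an SMC1 summit at the record start. These are positions of cohesin and not levels of expression. A peak also does not tell how many cells or which allele carried the protein.

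Ahead of the values, the sequences of the CTCF sites that flank the genes are shown, because the direction of the motif at a loop's ends was read from them. A motif of 19 bases was learned from the strongest CTCF summits on chromosomes other than 8, 11 and 16. Its consensus was CCANNAGGGGGCGCNNNNN, read on either strand, where N is a position at which no base reached 50% of sites. Each line gives the reference sequence from hg38, 5′ to 3′ along the strand of the best match within the CTCF peak, with the match in capitals.
Beta, downstream of HBB, forward strand, chr11:5204946-5205004, 13.2 bits: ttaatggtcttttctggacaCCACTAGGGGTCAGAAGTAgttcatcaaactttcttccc
Beta, upstream of HBE1, reverse strand, chr11:5291410-5291468, 13.8 bits: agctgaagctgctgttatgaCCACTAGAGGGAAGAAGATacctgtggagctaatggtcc
Beta, upstream of HBE1 just outside the window, reverse strand, chr11:5370038-5370096, 11.8 bits: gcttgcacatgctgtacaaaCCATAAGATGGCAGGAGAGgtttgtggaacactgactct
Beta, beside OR51M1 outside the window, reverse strand, chr11:5380905-5380963, 14.3 bits: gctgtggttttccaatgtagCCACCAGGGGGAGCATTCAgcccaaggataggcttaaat
Alpha, intron of RHBDF1, forward strand, chr16:65824-65882, 16.1 bits: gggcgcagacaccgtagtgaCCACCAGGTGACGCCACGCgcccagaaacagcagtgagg
Alpha, intron of NPRL3, reverse strand, chr16:97036-97094, 21.4 bits: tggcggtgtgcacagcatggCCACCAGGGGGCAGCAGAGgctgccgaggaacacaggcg
Alpha, intron of NPRL3, forward strand, chr16:107186-107244, 18.7 bits: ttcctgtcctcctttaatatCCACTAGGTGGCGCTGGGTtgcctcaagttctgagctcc
Alpha, intron of NPRL3, forward strand, chr16:117911-117969, 17.2 bits: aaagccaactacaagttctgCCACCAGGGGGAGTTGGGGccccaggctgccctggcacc
Alpha, start of HBQ1, reverse strand, chr16:180379-180437, 18.8 bits: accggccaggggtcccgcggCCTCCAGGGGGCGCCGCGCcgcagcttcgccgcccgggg
Alpha, downstream of HBQ1, reverse strand, chr16:181548-181606, 16.8 bits: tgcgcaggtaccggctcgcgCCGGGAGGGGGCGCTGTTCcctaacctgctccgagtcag
Alpha, between AXIN1 and MRPL28 outside the window, reverse strand, chr16:362296-362354, 14 bits: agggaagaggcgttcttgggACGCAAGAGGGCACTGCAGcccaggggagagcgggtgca
Matches are descriptions of the letters in these peaks. The match lay 1 bp from the CTCF summit downstream of HBB, 15 bp at chr16:97036-97094 and 13 bp at the start of HBQ1. At the other sites shown it lay 86 to 369 bp away. Whether a match was the bound site was not tested. Of all CTCF peaks, 58.2% held a match of at least 10 bits and 34.9% one of at least 13 bits anywhere in the peak, against 21.3% and 5.29% in stretches of the same length 5000 bp away. In the alpha window, 12 of 15 CTCF peaks and 9 of 15 such stretches held a match of at least 10 bits. At 13 bits these counts were 9 and 1 of 15. In the beta window they were 2 and 0 of 3 at either minimum.

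At the starts of the globin genes themselves few summits were listed. Repeated sequence near the starts of HBA2, HBA1, HBG1, HBG2 and HBZ limits what this shows, as described below. The start of the gene record was the fixed reference point, and no member had an SMC1 summit within 1 kb of it (0 of 8, where 50.5% of all coding genes had one) or a CTCF summit (0 of 8, against 33.9%). GENCODE extends the records of HBG2 and HBE1 by readthrough transcripts to points 250.8 and 235.7 kb upstream of the canonical start, and those of HBB, HBD and HBZ by 2.32, 9.17 and 9.92 kb. For this reason the starts of the canonical transcripts were used for the windows and for all distances of the members and their neighbors. Counts over the named gene lists use the record start unless the canonical start is named. By these, 1 of 8 members, HBZ, had an SMC1 summit within 1 kb, against 53.3% of coding genes, and 0 of 8 had a CTCF summit, against 35.5%.

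The beta-globin genes lay in a stretch without a summit of either protein. It ran for 75.5 kb from the SMC1 summit at chr11:5205031, downstream of HBB, to a weak SMC1 summit at chr11:5280516, upstream of HBE1, and all 5 beta-globin starts fell within it. For CTCF alone the stretch was 86.7 kb. The median length of the summit-free stretch around a coding gene's start was 14.6 kb, and 75.5 kb stood at the 81.7th percentile of coding genes, so stretches of this length were not rare. Among the 178 olfactory receptor genes of chromosome 11, the gene family that surrounds the beta cluster, the median was 134.2 kb.

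Distances from each beta-globin gene to the nearest peaks followed from its place in that stretch. HBB, the adult beta chain, had the nearest SMC1 summit 22040 bp downstream and the nearest CTCF summit 22097 bp downstream. HBD, the minor adult delta chain, shared these peaks at 29452 and 29509 bp. HBG1 and HBG2, the fetal gamma chains, lay 30659 and 25735 bp from the weak SMC1 summit upstream of HBE1 and 41804 and 36880 bp from the CTCF summit beyond it. HBE1, the embryonic epsilon chain, was the closest at 10571 bp for SMC1 and 21716 bp for CTCF. All 5 genes were farther from SMC1 than 77.3% of coding genes or more, against a median distance of 0.82 kb for all coding genes.

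A pair of sites bounded the longer stretch of 86.7 kb without a CTCF summit, and both carried both proteins. The first lay 22 kb downstream of the HBB start, between canonical coding transcripts and 4349 bp upstream of OR51V1, with an SMC1 fold enrichment of 7.54 (−log10 q-value 128.6) and a CTCF fold enrichment of 7.76 (−log10 q-value 43.6). The fold enrichment is the pileup at the summit over the local background, as the peak caller wrote it. The second lay 21.7 kb upstream of HBE1, on the side of the locus control region, with folds of 7.46 for SMC1 (−log10 q-value 50.6) and 11.4 for CTCF (−log10 q-value 55.5). The SMC1 and CTCF summits were 57 bp apart at the first and 2 bp apart at the second.

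The other peaks of the beta window were weak. Between HBE1 and the second site, SMC1 peaks without CTCF lay 10.6 kb upstream of HBE1 (fold 2.95, −log10 q-value 5.67) and 20.1 kb upstream (fold 2.79, −log10 q-value 6.58). Both stood in the lowest 26.2% of all SMC1 peaks by −log10 q-value. A small CTCF peak lay 22.6 kb upstream of HBE1 (fold 2.97, −log10 q-value 3.68). The remaining SMC1 peaks lay among the olfactory receptor genes at 67.7, 69.6, 73.8 and 99.1 kb upstream of HBE1, with folds of 3.0, 3.15, 2.68 and 1.98. In all, the window held 8 SMC1 peaks, or 3.29 per 100 kb, and 3 CTCF peaks, or 1.24 per 100 kb. Of the 8 SMC1 peaks, 2 overlapped a CTCF peak (25%, exact 95% interval 3.19 to 65.1%), and 3 of 3 CTCF peaks overlapped an SMC1 peak. Over the whole lists these shares were 47.1% and 75.9%.

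Further sites with both proteins stood just beyond the window. An SMC1 summit with a fold of 8.10 and a −log10 q-value of 136.6 lay 63 bp outside, and the CTCF summit at the same place had a fold of 12.4 and a −log10 q-value of 122.1. A further pair of summits lay 110.9 kb upstream of HBE1, with folds of 6.68 for SMC1 and 8.73 for CTCF. On the other side, summits 102.6 kb downstream of HBB had folds of 5.81 and 8.94. These sites are described because the loops of the beta cluster ended at them.

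**Figure D1:**
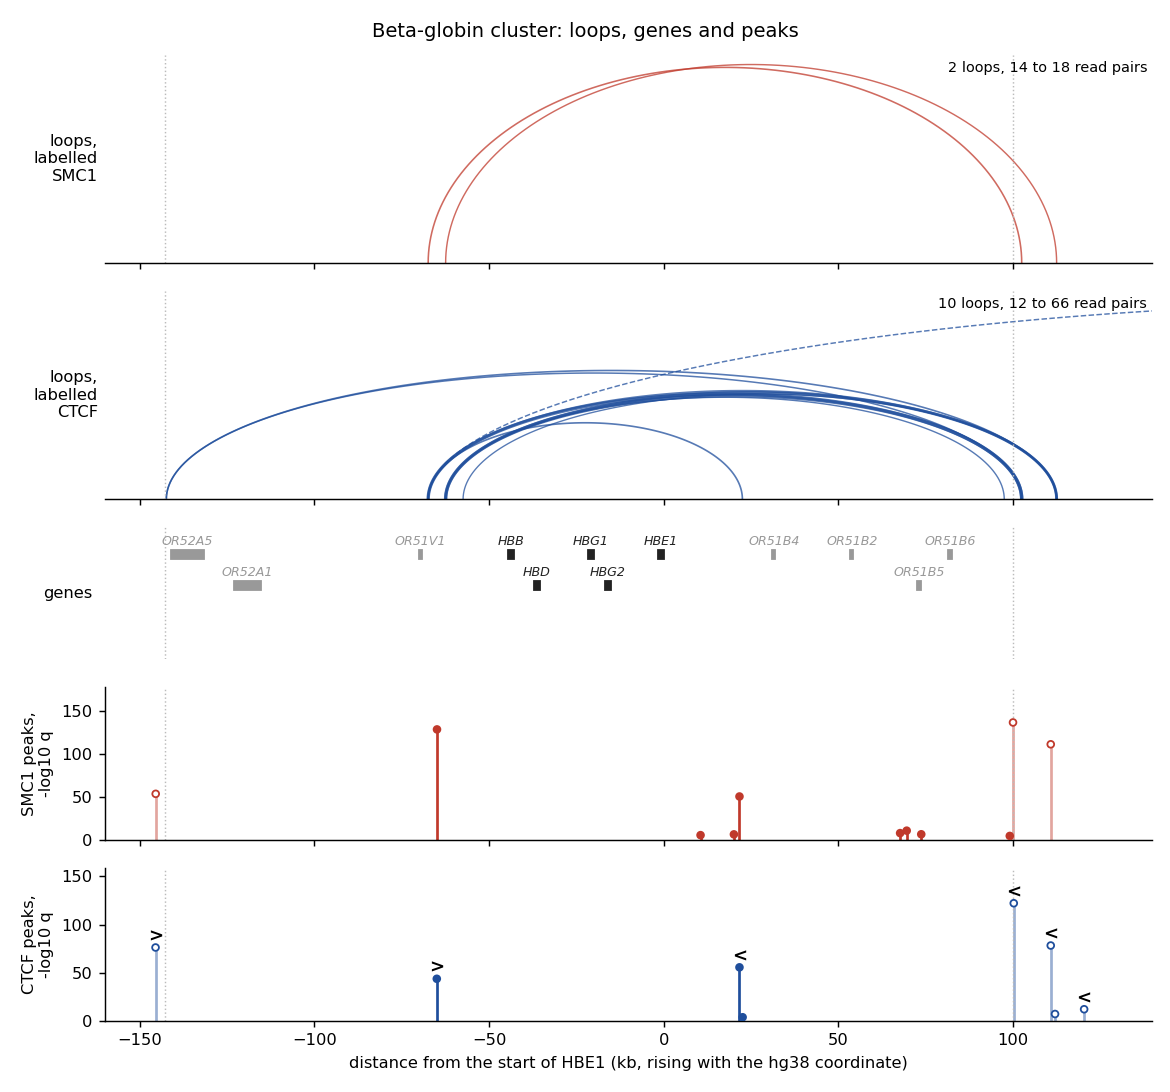
Loops of both lists, genes and peaks around the beta-globin cluster, by distance from the start of HBE1 in kb; arcs join the centers of anchor bins, with width in proportion to read pairs and a dashed line for the loop that leaves the plot. Stems give the −log10 q-value of each peak, filled inside the window (dotted lines) and open outside, and arrowheads give the strand of CTCF matches of at least 10 bits; the 5 globin genes sit in the gap between the SMC1 stem of 128.6 and the first weak stem upstream of HBE1.

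Every loop called in the beta window passed over all 5 globin genes, and none ended at a globin start. The list labelled SMC1 had 2 loops there. The stronger joined chr11:5200001-5205000 to chr11:5370001-5375000 with 18 read pairs (exact Poisson 95% interval 10.7 to 28.4) where 2.33 were expected. The other joined the next bin, chr11:5205001-5210000, to chr11:5380001-5385000 with 14 pairs (7.65 to 23.5) against 1.95. These intervals, like all those given here, cover counting error only and hold no spread between replicates. The intervals of the ratios given below take the expected count as fixed.

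The list labelled CTCF had 10 loops in the beta window. Its strongest joined chr11:5205001-5210000 to chr11:5370001-5375000 with 66 pairs against 5.12 expected, a ratio of 12.9 (interval 9.97 to 16.4). From the neighboring bin chr11:5200001-5205000 to the same end it had 63 pairs against 5.42, a ratio of 11.6. The site downstream of HBB sits on the border of these bins, with its CTCF summit in chr11:5200001-5205000 and its SMC1 summit in chr11:5205001-5210000, so the pair of loops are 2 views of 1 site. To the end beside OR51M1 the counts were 52 pairs from chr11:5205001-5210000 and 42 from chr11:5200001-5205000, with ratios of 8.37 and 6.37.

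Only 1 loop ended at the site on the locus control region side. It joined chr11:5200001-5205000 to chr11:5290001-5295000 over 90 kb with 20 pairs against 5.10 expected, a ratio of 3.92 (interval 2.39 to 6.06), and was in the list labelled CTCF. Its ratio was the lowest of the 10. The interval of the 66-pair loop lay wholly above it. The longest loop reached 605 kb to chr11:5805001-5810000 with 15 pairs against 2.45. The other 4 had 12 to 19 pairs.

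In all, 2 loops of the list labelled SMC1 and 14 of the list labelled CTCF passed over the 5 beta-globin starts, counting 4 loops whose anchors both lay outside the window. Of those 4, the strongest joined chr11:5120001-5125000 to chr11:5380001-5385000 with 39 pairs against 4.60. All 8 globin genes, alpha included, lay beneath at least 1 loop of each list, as did 42.3% of coding genes for the label SMC1 and 68.2% for the label CTCF. The counts of 2 and 14 stood at the 69.0th and 85.8th percentiles of coding genes, where the medians were 0 and 3. Loops with an anchor within 100 kb of a single beta-globin start numbered 2 (label SMC1) and 8 to 10 (label CTCF). These stood at percentiles 43.9 and 36.4 to 41.3 of coding genes, where the medians were 3 and 14.

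Where CTCF peaks at both ends of these loops held a match, the matches pointed towards each other. The forward match downstream of HBB faced the reverse matches at 21.7, 100.3 and 110.9 kb upstream of HBE1. Both loops of the list labelled SMC1 and all 6 of the list labelled CTCF with such a match of at least 10 bits in a CTCF peak at each end were convergent. The share over all loops was 61.2% of 11508 and 63.1% of 25799. The exact interval for 6 of 6 ran from 54.1 to 100%, which includes the share over all loops, and these 6 loops shared the same left-hand site. Reading matches within CTCF peaks was chosen after seeing the data. With the best match of at least 7 bits anywhere in the anchors, 3 of 7 beta loops labelled CTCF (42.9%) and 1 of 1 labelled SMC1 were convergent, against 44.3% and 45.9% over all loops.

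The alpha cluster differed in nearly every count. Its window held 23 SMC1 peaks, or 10.3 per 100 kb, and 15 CTCF peaks, or 6.70 per 100 kb. Within 100 kb of a single start there were 21 SMC1 peaks for HBZ and 19 for HBA2 and HBA1, against 4 for HBB and HBD, 7 for HBG1 and HBG2 and 8 for HBE1. Coding genes had a median of 11. For CTCF the alpha-globin genes had 15, 11 and 11 and each beta-globin gene had 3, against a median of 8. In percentiles of coding genes, the alpha-globin genes stood at 82.7 to 88.3 for SMC1 and the beta-globin genes at 17.1 to 34.7. Neighbors share most of their window, so these counts are not independent of each other. The 178 olfactory receptor genes of chromosome 11 had medians of 2 and 2.5.

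**Figure D2:**
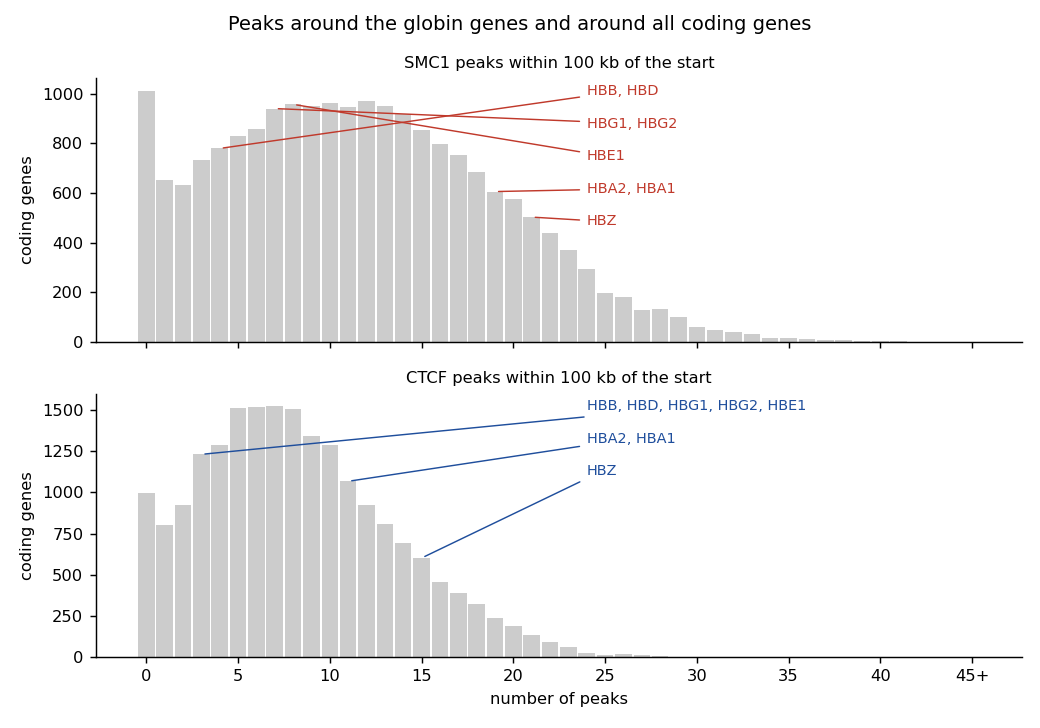
Number of coding genes (vertical axis) by the number of SMC1 peaks (upper panel) and CTCF peaks (lower panel) within 100 kb of the canonical start, with the last bar holding 45 and more; lines mark the bars in which the 8 globin genes fall. The beta-globin genes lie at 4 to 8 SMC1 and 3 CTCF peaks and the alpha-globin genes at 19 to 21 and 11 to 15.

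Close to the alpha-globin genes the peaks were weak, apart from those at HBQ1. HBZ, the embryonic zeta chain, had an SMC1 summit 214 bp upstream of its start with a fold of 2.57 and a −log10 q-value of 3.79, at percentile 7.51 of all SMC1 peaks. A second summit lay 2045 bp downstream of the start, beyond the transcript's end, with a fold of 2.76. HBA2, the stronger of the alpha genes in adult red cells, had a CTCF summit 1891 bp upstream with a fold of 3.20 and a −log10 q-value of 4.45. It was the only CTCF peak of the alpha window without an SMC1 peak, and its best motif match was 5.80 bits. HBA1 had the nearest CTCF summit 3715 bp downstream, 64 bp upstream of the HBQ1 start (fold 4.18), and the nearest SMC1 summit 4600 bp downstream (fold 6.68, −log10 q-value 83.7).

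The strongest peaks of the alpha window lay upstream of the globin genes inside other genes. The highest of both lists by −log10 q-value was in an intron of NPRL3, which encodes a regulator of mTORC1, 55.5 kb upstream of HBZ. Its SMC1 fold was 12.5 (−log10 q-value 437.2) and its CTCF fold 14.2 (−log10 q-value 505.8), at the 99.96th and 99.9th percentiles of their lists by −log10 q-value. Also in intron sequence of NPRL3, a shared site lay 45.5 kb upstream of HBZ (SMC1 fold 6.28, CTCF fold 9.39). A further one lay 34.5 kb upstream (SMC1 fold 8.31, CTCF fold 10.9). An intron of RHBDF1, which encodes an inactive rhomboid protease, held a site 86.9 kb upstream, with folds of 12.2 and 16.4.

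Downstream of HBA1 a shared site lay at HBQ1, the theta globin gene. Its CTCF summits were 64 bp upstream and 864 bp downstream of the HBQ1 start, with folds of 4.18 and 10.3, and 1 wide SMC1 peak covered both. Farther downstream, shared summits lay 61 and 105 bp upstream of the FAM234A start (CTCF fold 12.0, SMC1 fold 6.93). Between 11.9 and 51.0 kb downstream of HBA1, mostly in the body of LUC7L, a splicing factor gene, no summit of either target was listed over 39.1 kb.

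Shared and unshared peaks of the alpha window differed in size. Of 23 SMC1 peaks, 12 overlapped a CTCF peak (52.2%, interval 30.6 to 73.2%), and their median fold was 6.35, against 2.86 for the other 11. Of 15 CTCF peaks, 14 overlapped an SMC1 peak (93.3%, interval 68.1 to 99.8%). Over all SMC1 peaks the medians were 4.65 for shared and 2.76 for unshared peaks, so the same order held across the genome. The median fold of all SMC1 peaks was 3.42 in the alpha window, 2.97 in the beta window and 3.32 over the whole list.

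Peaks at the starts of the neighboring genes were counted in the same way. Of the 10 other coding genes of the alpha window, 7 had an SMC1 summit within 1 kb of the canonical start (POLR3K, SNRNP25, MPG, NPRL3, HBQ1, LUC7L and FAM234A), or 7 of 10 where 53.3% of coding genes had one, and 5 of 10 had a CTCF summit, against 35.5%. HBM, the mu globin gene, lay 11289 bp from SMC1 and 5007 bp from CTCF. Of the 7 olfactory receptor genes of the beta window, 1 had an SMC1 summit, OR51B5 at 203 bp (fold 2.68), and 0 had a CTCF summit. Over all olfactory receptor genes of chromosome 11 the shares were 3.93% and 1.69%.

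**Figure D3:**
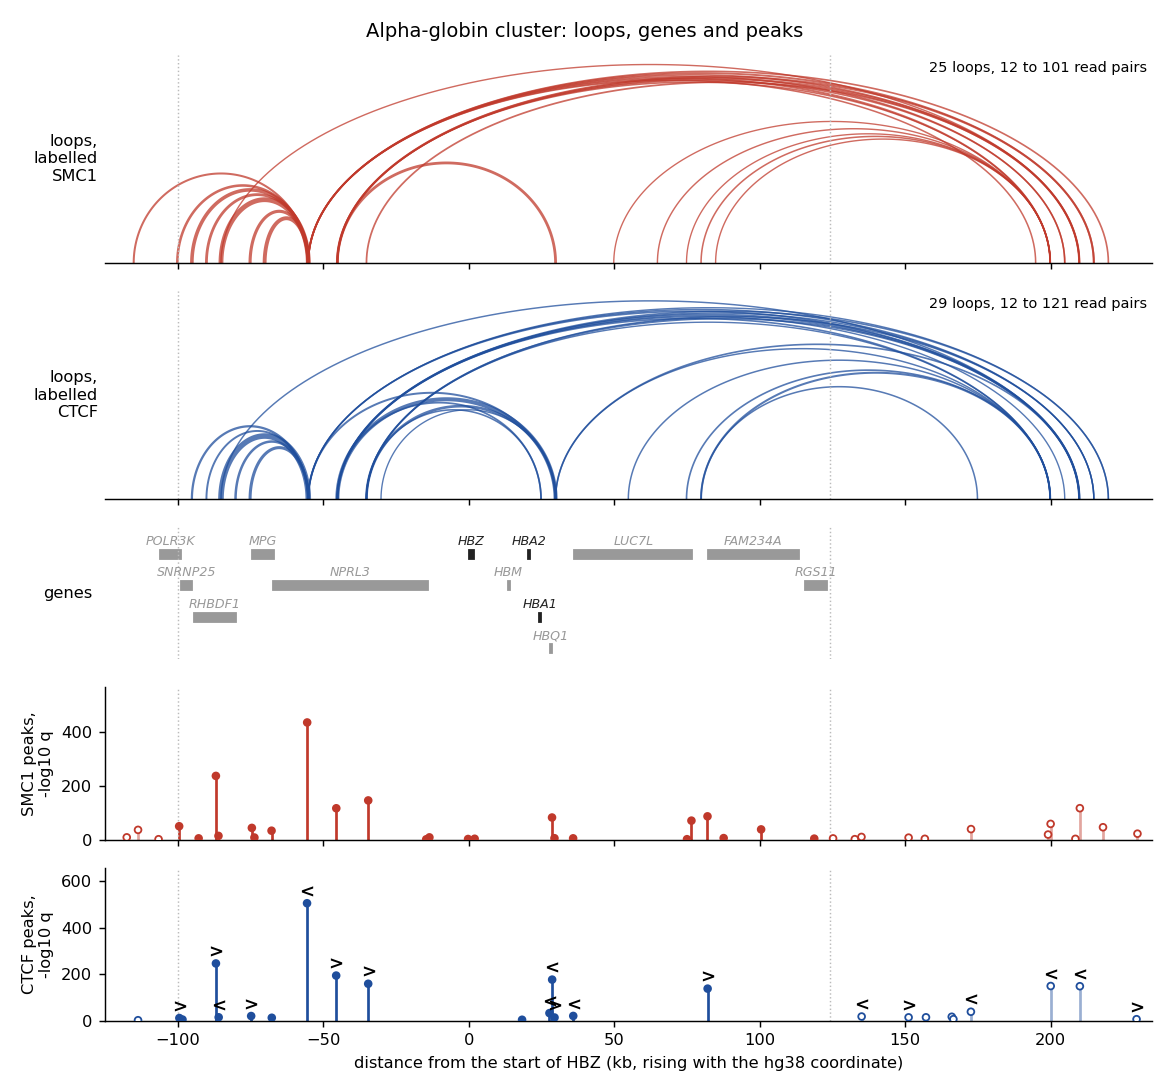
Loops of both lists, genes and peaks around the alpha-globin cluster, by distance from the start of HBZ in kb; arcs join the centers of anchor bins, with width in proportion to read pairs. Stems give the −log10 q-value of each peak, filled inside the window (dotted lines) and open outside, and arrowheads give the strand of CTCF matches of at least 10 bits; the tallest stems, 437.2 for SMC1 and 505.8 for CTCF, lie in NPRL3.

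Most loops of the alpha window fell into 3 sets in both lists, with 25 loops labelled SMC1 and 29 labelled CTCF. The first set lay upstream of the globin genes and ended at the strong NPRL3 site in chr16:95001-100000. The second ran from NPRL3 over HBZ, HBA2 and HBA1. The third joined LUC7L and FAM234A to AXIN1, which encodes a scaffold of the Wnt pathway. Loops labelled SMC1 ended at chr16:95001-100000 in 13 cases and at chr16:105001-110000 in 5, and loops labelled CTCF in 9 and 7.

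In the first set, the loop from the RHBDF1 site to the strong NPRL3 site had the most read pairs of the window in each list. It joined chr16:65001-70000 to chr16:95001-100000 with 101 pairs against 44.4 expected in the list labelled SMC1, a ratio of 2.28 (interval 1.85 to 2.76). In the list labelled CTCF it had 121 pairs against 33.6, a ratio of 3.6. These intervals did not overlap. By ratio, this loop stood only at percentile 4.53 of all loops labelled SMC1 and at 40.54 of all loops labelled CTCF. The matches at its ends, forward in RHBDF1 and reverse in NPRL3, faced each other.

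In the second set, the loop with the most read pairs over the globin genes joined NPRL3 to HBQ1 in each list. From chr16:105001-110000 to chr16:180001-185000 the list labelled CTCF had 81 pairs against 12.7 expected, a ratio of 6.39 (interval 5.08 to 7.94), and the list labelled SMC1 had 49 pairs against 21.9, a ratio of 2.23 (interval 1.65 to 2.95). By ratio, this loop stood at percentile 79.98 of all loops labelled CTCF but at 3.74 of all loops labelled SMC1. The second NPRL3 bin, chr16:115001-120000, reached the same end with 46 pairs against 11.6 in the list labelled CTCF. In each bin the match was read in the CTCF peak of highest −log10 q-value with a match of at least 10 bits. It was forward in both NPRL3 bins and reverse in the HBQ1 bin, so both pairs were convergent. A weaker CTCF peak of the HBQ1 bin, with its summit 1682 bp downstream of the HBQ1 start, held a forward match of 10.6 bits. The bin at chr16:95001-100000, whose match was reverse, also reached HBQ1 in the list labelled CTCF, with 28 pairs against 13.3, a ratio of 2.10. That ratio stood at percentile 1.70 of all loops labelled CTCF.

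HBA1 was the only globin gene among the 8 whose start lay in an anchor. Its bin, chr16:175001-180000, held no peak of either target and joined chr16:105001-110000 with 22 pairs against 4.98 (ratio 4.42, interval 2.77 to 6.69) and chr16:115001-120000 with 18 pairs against 4.64 (ratio 3.88, interval 2.30 to 6.13). Both were in the list labelled CTCF. The bin lies beside the HBQ1 bin, which had 81 and 46 pairs with the same partners. So 1 of 8 record starts lay in an anchor of the list labelled CTCF, where 39.9% of coding genes did, and 0 of 8 in the list labelled SMC1, where 19.2% did. Canonical starts gave the same counts of members, against 40.5% and 19.1%.

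Longer loops of the second set passed over the whole alpha cluster to the region between AXIN1 and MRPL28, a mitochondrial ribosomal protein gene. The strongest by ratio in the list labelled CTCF joined chr16:105001-110000 to chr16:360001-365000 over 255 kb, with 39 pairs against 3.40, a ratio of 11.5 (interval 8.16 to 15.7). The same bins had 35 pairs against 4.52 in the list labelled SMC1, a ratio of 7.74 (interval 5.39 to 10.8). The second NPRL3 bin had 27 pairs against 2.95 and 22 against 3.35. In the list labelled SMC1 the highest ratio of the window was 9.59, to the next bin, chr16:365001-370000, with 29 pairs against 3.02. For the loops from chr16:105001-110000 and chr16:115001-120000 to chr16:360001-365000, the matches were forward in NPRL3 and reverse at chr16:362316-362334. The bin chr16:365001-370000 held no peak of either target.

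In total, 13 loops of the list labelled SMC1 and 16 of the list labelled CTCF passed over HBZ, HBA2 and HBA1 together. With the pair that ended at HBA1, 18 of the list labelled CTCF passed over HBZ and HBA2. The counts of 13 and 18 stood at the 94.0th and 91.0th percentiles of coding genes. Loops with an anchor within 100 kb of a single alpha-globin start numbered 24 to 25 (label SMC1) and 28 to 29 (label CTCF). These stood at percentiles 89.0 to 89.6 and 73.0 to 74.2. In the third set, the FAM234A bin chr16:230001-235000 joined the AXIN1 bin chr16:350001-355000 with 29 pairs against 3.57 in the list labelled CTCF and 17 against 4.96 in the list labelled SMC1.

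Convergent pairs were counted over the alpha loops as well. Of the loops with a match of at least 10 bits in a CTCF peak at both ends, 10 of 12 in the list labelled SMC1 (83.3%, interval 51.6 to 97.9%) and 11 of 15 in the list labelled CTCF (73.3%, interval 44.9 to 92.2%) were convergent. Both intervals include the shares over all loops. Many of these loops shared an end, such as the strong NPRL3 site, so the loops are not independent of each other. With matches of at least 7 bits anywhere in the anchors, 16 of 25 (64%) and 19 of 29 (65.5%) were convergent, and 2 and 0 were divergent. By matches in CTCF peaks, the loops that were not convergent were all tandem and none was divergent. All 4 tandem loops of the list labelled CTCF in that count had reverse matches at both ends.

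Peaks at loop anchors were counted against the list of the same label. In the alpha window 16 of 23 SMC1 peaks (69.6%, interval 47.1 to 86.8%) overlapped an anchor of the list labelled SMC1, where 22% of all SMC1 peaks did. In the beta window 1 of 8 did (12.5%, interval 0.316 to 52.7%). For CTCF peaks and the list labelled CTCF the counts were 10 of 15 in the alpha window (66.7%, interval 38.4 to 88.2%) and 3 of 3 in the beta window, against 55.3% of all CTCF peaks. With the loop lists exchanged, 13 of 23 alpha SMC1 peaks (56.5%) and 4 of 8 beta SMC1 peaks (50%) overlapped an anchor, against 51.2% of all SMC1 peaks. For CTCF peaks the exchange gave 13 of 15 (86.7%) and 1 of 3 (33.3%), against 28% of all. The comparison of the windows with the whole lists therefore turned on the labels of the loop lists. Only the exchanged lists have the sizes that the study's own table gives for these targets.

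The lists overlapped in both clusters. With 15 kb allowed at each end, 2 of 2 loops labelled SMC1 and 6 of 10 labelled CTCF in the beta window had a partner in the other list, and 24 of 25 and 26 of 29 did in the alpha window. Over the whole lists the shares were 91.7% and 53.4%. Exactly the same pair of bins was called in both lists for 2 beta loops, or 100% of the list labelled SMC1 and 20% of the list labelled CTCF. For the alpha window it was 16 loops, or 64% and 55.2%. Of these 16, the ratio was higher in the list labelled CTCF for 12 and in the list labelled SMC1 for 4. Both beta loops had the higher ratio in the list labelled CTCF.

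**Figure D4:**
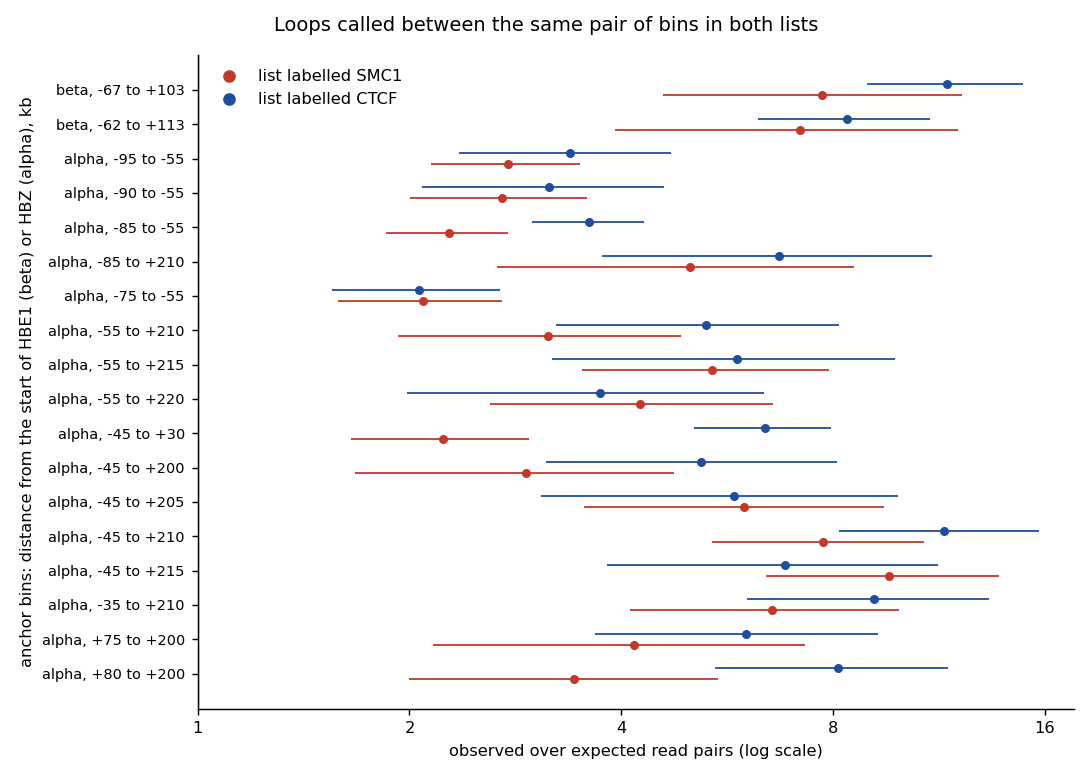
Observed over expected read pairs (log scale) for the 18 pairs of bins that were called as loops in both lists, with anchors given as distance in kb from the start of HBE1 (beta) or HBZ (alpha). Bars are exact Poisson intervals of the read pairs, covering counting error only. The loop from NPRL3 to HBQ1 has 2.23 and 6.39. The bars do not overlap for this loop and for the loop from RHBDF1 to NPRL3, and they overlap for the other pairs.

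Near-identical gene copies limited what could be read at some starts. Reads that fit more than 1 place were removed by the authors' mapping quality filter, so the share of sequence that occurs more than once in hg38 was counted within 1 kb of each start. For stretches of 50 bases it was 70.8% at HBA2, 67.1% at HBA1, 40.8% at HBG1, 40.7% at HBG2 and 33.6% at HBZ. At HBB and HBD it was 1.08% and at HBE1 0.102%. For stretches of 100 bases it was 56.1, 54.9, 32.0, 31.8 and 19.1% at the first 5 genes and 0% at the other 3. HBB, HBD and HBE1 had no peak at starts where nearly all of the sequence was unique, while the part of repeats in the result for the alpha and gamma genes was not tested. Over the whole summit-free stretch of the beta cluster the shares were 10.7% and 3.99%. They were 9.46% and 2.94% over the beta window and 11.6% and 2.93% over the alpha window. The part of repeats in the lack of summits in that stretch was not tested.

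**Figure D5:**
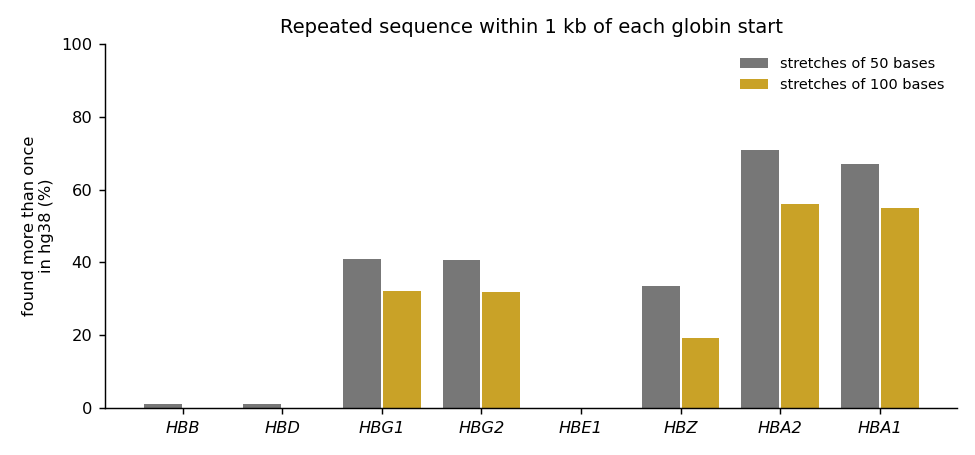
Share of stretches of 50 bases (gray) and 100 bases (yellow) within 1 kb of each globin start that occur more than once in hg38, in percent. HBA2 and HBA1 stand highest at 70.8 and 67.1%, and HBB, HBD and HBE1 lie at 1.08% or less.

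Other globin genes and the genes known to regulate the clusters were listed by name, with distances from the record start. Of the 5 other globins, HBM, HBQ1, MB, CYGB and NGB, 2 had an SMC1 summit within 1 kb, HBM at 797 bp and HBQ1 at 821 bp, and 1, HBQ1, a CTCF summit. By canonical starts 1 of 5, HBQ1, had an SMC1 summit, since that of HBM lay 11289 bp away. MB (myoglobin) lay 8105 bp from SMC1, CYGB (cytoglobin) 2538 bp and NGB (neuroglobin) 29635 bp, and from canonical starts these were 6203, 8217 and 29635 bp. Of 8 erythroid activators and partners, GATA1, KLF1, TAL1, NFE2, LMO2, LDB1, GFI1B and ZFPM1, 2 had an SMC1 summit, LMO2 at 416 bp and GFI1B at 757 bp, and 1 had a CTCF summit, GFI1B at 654 bp. By canonical starts the counts were 1 of 8, LMO2, and 0 of 8, with GFI1B at 1409 and 1449 bp. TAL1 lay 31118 bp and GATA1, the master factor of the red lineage, 15692 bp from SMC1.

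Of the 3 genes of fetal globin silencing and its control, BCL11A, ZBTB7A and MYB, 0 had a summit of either target within 1 kb of the record or the canonical start. BCL11A, the repressor of the gamma genes that B cells also express, lay 3069 bp from SMC1 and 3817 bp from CTCF (fold 11) by its record start. MYB lay 2644 bp from SMC1 (fold 6.72, −log10 q-value 188.2) and 2689 bp from CTCF (fold 14). Of 6 genes of erythroid products, ALAS2, FECH, AHSP, SLC4A1, EPOR and EPB42, 1 had a summit of each target by either start. It was FECH, the last enzyme of heme synthesis, with SMC1 at 293 bp and CTCF at 68 bp of the record start. These shares stand against the 50.5% and 33.9% of coding genes for record starts given above, and 53.3% and 35.5% for canonical starts.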

How the data were processed

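The 4 HiChIP libraries comprised 2 biological replicates of SMC1 and 2 of CTCF. The authors mapped reads to hg38 with BWA-MEM, removed reads of low mapping quality and duplicates, pooled replicates, called peaks with MACS3 3.0.1 without an input control and called loops with MAPS in 5 kb bins. The deposited peak lists hold fold enrichment over local background and −log10 q-values. The deposited loop lists hold counts of read pairs, the authors' expected signal in read pairs and false discovery rates, which are q-values. Coverage tracks and contact maps were not used here.

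From these, peaks and loops within 100 kb of canonical starts (GENCODE v44) were listed with Python 3.11.15, pandas 2.3.3 and SciPy 1.17.1. Intervals are exact binomial (Clopper-Pearson) or Poisson, 95%. Percentiles are the percent of values below plus ties shared equally. The CTCF motif was learned by expectation maximization from 3000 summits and tested on simulated data. Convergent means forward on the left and reverse on the right. Genes named were the members, coding genes in the windows and listed globin, erythroid and B cell genes. A few listed marker genes are not reported here. Peaks and loops named were the strongest, the longest, those nearest to members and those at a member's start, and others were chosen after their values were seen. Members and lists were chosen with earlier results of these data known.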

Additional observations from a re-analysis of the deposited data

How the results depend on the processing

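Of 117 alternative values for 36 results, 74 stayed within 1.5 times the reported count or within the reported share's interval and 43 moved. A −log10 q-value of at least 10 left 3 and 12 SMC1 peaks in the beta and alpha windows, put the shares of SMC1 peaks overlapping a CTCF peak at 66.7% and 83.3%, the share of alpha SMC1 peaks in an anchor at 91.7%, and median SMC1 folds at 7.46 and 6.55. Windows of 50 kb held 4 and 9 SMC1 peaks (beta, alpha), 7 alpha CTCF peaks and 9 and 18 alpha loops (labels SMC1, CTCF). Windows of 200 kb held 38 alpha SMC1 peaks and 8 and 25 CTCF peaks. Windows from gene records, added after seeing the data, held 6 beta CTCF peaks and 22 beta loops labelled CTCF. With both anchors inside, beta loops numbered 0 and 2 and alpha loops 7 and 11. With at least the median read pairs they numbered 0 and 4, and 13 and 11. Exchanging the loop lists made the beta loops 10 and 2, the members with a start in an anchor 1 and 0, and the coding genes 7968 and 3831.

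A member had a peak at its start in 1 of 8 for SMC1 with any transcript start or, added later, the canonical start (HBZ), and in 1 of 8 for CTCF within 2 kb (HBA2). Within 5 kb of an anchor, starts of 1 and 2 members lay (labels SMC1, CTCF). Without tolerance, 20% of beta loops labelled CTCF and 64% and 55.2% of alpha loops were in the other list. Within 50 bp of the summit at 7 bits, 33.3% of beta and 60% of alpha CTCF peaks held a match (all peaks 34.3%). At 1000 bp away the shares were 0% for beta, 40% for alpha and 18.0% for all peaks. At 10 and 13 bits 13.3% of alpha peaks held a match, against 0% at 1000 bp away. With matches of 7 bits anywhere in the anchors, 42.9% of beta loops labelled CTCF and 64% and 65.5% of alpha loops were convergent (all loops 45.9% and 44.3%). Matches in CTCF peaks, chosen after seeing the data, gave 100% for the beta loops and 83.3% for alpha loops labelled SMC1.

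No paired analysis was possible because the replicates of each target had been pooled before peaks and loops were called, and no replicate was left out for the same reason.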
